A study of Mus musculus with 12 samples.

Results

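Mpeg1, Csf1r, Cx3cr1, Adgre1, Ly86 and Cd68 are 6 genes that mark monocytes and macrophages. They were chosen by name from 21887 protein-coding mouse genes, with earlier results of these data known. Each is described here by the open chromatin around it. Peaks that touched the gene or lay within 50 kb of it were collected in every library and merged wherever they overlapped by at least 1 bp. The 6 windows held 63 of the 56682 merged regions of the whole study, and 24 of the 63 lay within 10 kb of a gene.

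The cells were mouse HoxB8 cells, an immortalised bone marrow line kept in stem cell factor and estrogen. Their chromatin was assayed by ATAC-seq, which cuts and tags open DNA with a transposase. Estrogen had been withdrawn for 48 h from the cells of every library, and no sample kept in estrogen is compared. In lines of this kind estrogen keeps HoxB8 active, and its removal lets the cells mature. The cells carried the guide Asxl1 B2 (sgB2), made to truncate Asxl1, or a non-targeting guide (sgNT), together with the vector pMICH-CSF3R-T618I or pMICH-Empty. CSF3R T618I is an activated G-CSF receptor, whose ligand drives neutrophil production, and Asxl1 is a Polycomb-associated protein mutated in myeloid leukaemia. The groups sgB2/T618I, sgNT/T618I, sgB2/Empty and sgNT/Empty had 3 libraries each. The labels name neither clones nor separate cultures, so every p-value measures the spread between libraries, which may be technical.

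Monocytes and macrophages arise from the same bone marrow progenitors as neutrophils, and Csf1r and Cx3cr1 are among the surface receptors that mark this branch. Csf1r is the receptor tyrosine kinase for Csf1 and Il34 and is needed for the survival of most macrophages. Cx3cr1 is the receptor for the chemokine Cx3cl1, and Adgre1 encodes the adhesion receptor known as F4/80. Ly86, also called MD-1, is the secreted partner of the Toll-like receptor homologue Cd180. Mpeg1 encodes perforin-2, a pore-forming protein that acts on engulfed bacteria, and Cd68 is a glycoprotein of lysosomes. ATAC-seq measures accessible DNA and not the RNA of these genes.

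The peak lists held 24995, 32975 and 23695 peaks in sgB2/T618I, 28584, 26112 and 29642 in sgNT/T618I, 20293, 25252 and 25891 in sgB2/Empty, and 18484, 26579 and 29699 in sgNT/Empty. Lists of T618I libraries covered 12.6 to 17.9 Mb, against 9.23 to 16.8 Mb in Empty libraries. Covered lengths below are therefore scaled to the same total per library, and sequencing depth itself is unknown. A smaller covered length can come from fewer cells with an open site or from less signal per cell, which cannot be told apart in bulk libraries. Covered length also depends on depth and on peak calling, and a longer peak need not be a stronger one.

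Peaks were found in the window of each of the 6 genes in all 12 libraries. Averaged over the 12 libraries, the scaled covered length per window was 5.25 kb for Cd68, 4.01 kb for Cx3cr1, 3.99 kb for Ly86, 3.28 kb for Mpeg1, 2.17 kb for Csf1r and 2.02 kb for Adgre1. Neighbours in this order did not all separate: Cx3cr1 and Ly86 differed by less than the SD of Ly86 between libraries (0.623 kb), and Csf1r and Adgre1 by less than the SD of either (0.563 and 0.533 kb). The windows differ in length, at 225 kb for Adgre1 and 102 kb for Cd68, so the order describes windows and not openness per base. On the log2 scale the SD over libraries ran between 0.08 for Cx3cr1 and 0.36 for Adgre1.

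**Figure D1:**
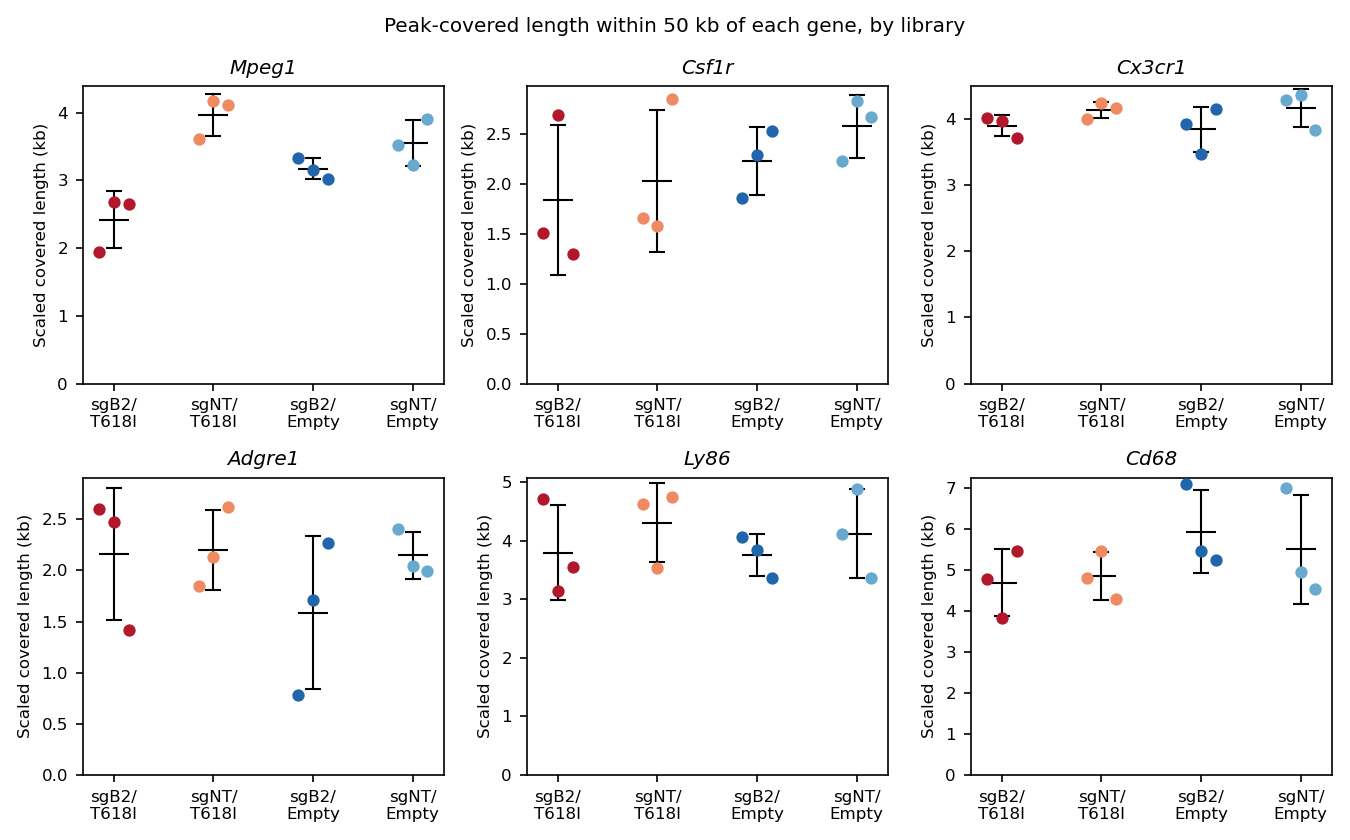
Scaled peak-covered length (kb) within 50 kb of each gene, with 1 point per library and the mean and SD of the 3 libraries of a group as black bars. For Mpeg1 the 3 sgB2/T618I libraries (1.94 to 2.68 kb) lie below the other 9, while the groups of the other 5 genes overlap.

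For the T618I vector against the empty one, 0 of the 6 genes passed the test, a limma fit over 15286 genes with Benjamini-Hochberg adjustment; 6.49% of all genes tested passed. The 6 changes, as log2 means over both guides, ran from -0.29 ± 0.15 (SE) for Csf1r to 0.20 ± 0.17 for Adgre1, with a median of -0.05, equal to the median of all genes. The lowest adjusted p was 0.244, for Cd68 at -0.23 ± 0.11. The 95% interval was -0.61 to 0.03 for Csf1r, -0.47 to 0.01 for Cd68, -0.29 to 0.09 for Mpeg1, -0.15 to 0.17 for Cx3cr1, -0.21 to 0.27 for Ly86 and -0.15 to 0.56 for Adgre1. Taken separately, the T618I change passed for 0 of 6 genes in sgB2 cells, where 1.6% of all genes passed, and for 0 of 6 in sgNT cells, where 1.49% passed. Within 10 kb, where Adgre1 was below the mean of 500 bp needed for the test, 0 of 5 genes passed where 3.13% of all genes did; their median was -0.24, against a median of -0.08 for all genes.

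Some other genes of the branch passed for T618I, as did 6.49% of all genes tested. Of all 15286 genes, 621 rose and 371 fell, with a median of -0.05. Of 7 tested ligands, partners and receptors that work with the 6 genes, 2 rose with T618I and 0 fell, with a median of 0.04: Csf1, the ligand of Csf1r, at 0.44 ± 0.09 (limma adjusted p = 0.0109), and the endotoxin receptor Tlr4 at 0.40 ± 0.11 (adjusted p = 0.0359). Csf1 covered 2.61 ± 0.074 kb in sgB2/T618I, 2.90 ± 0.486 in sgNT/T618I, 1.74 ± 0.238 in sgB2/Empty and 2.05 ± 0.046 in sgNT/Empty (SD, n = 3 each). The call of Csf1 was kept without any single library and lost within 10 kb (0.35, adjusted p = 0.128), whereas that of Tlr4 was kept only without replicate 3 of sgNT/Empty, replicate 3 of sgNT/T618I or replicate 1 of sgB2/T618I. Its value lay between 0.34 and 0.45 over the 12 omissions.

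Of 7 tested transcription factors of monocyte fate, 1 rose and 1 fell with T618I, with a median of 0.15. Of all genes tested 6.49% passed, with a median of -0.05. Spi1, which encodes the myeloid factor PU.1, rose by 0.28 ± 0.08 (limma adjusted p = 0.039), but passed in only 1 of the 12 fits that each omit a library, the one without replicate 3 of sgB2/Empty (range 0.25 to 0.32). Maf, a factor of mature macrophages, fell by 1.21 on the log2 scale (-1.21 ± 0.19, adjusted p = 0.00135). Its window held 0.167 ± 0.145 kb in sgB2/T618I, 0.127 ± 0.114 kb in sgNT/T618I, 0.841 ± 0.480 kb in sgB2/Empty and 1.22 ± 0.210 kb in sgNT/Empty. Both T618I means lie below the mean of 500 bp needed for the test. Maf thus entered the test only through its Empty libraries. Among 15 other monocyte and macrophage genes tested, of 21 listed, 2 rose and 0 fell, with a median of 0.12. These were Siglec1, a sialic acid receptor of macrophages, at 0.74 ± 0.14 (adjusted p = 0.00443), and the chemokine receptor Ccr2 at 0.47 ± 0.12 (adjusted p = 0.0244). The call of Siglec1 was kept without any single library and lost with lists of equal length (0.47, adjusted p = 0.24). That of Ccr2 was lost without replicate 2 of sgB2/Empty, of sgNT/Empty or of sgNT/T618I and without replicate 3 of sgB2/T618I (0.37 to 0.44).

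Among lists for other cell types, that of neutrophils held most of the calls. All lists were chosen with earlier results of these data known, so these counts are a description and not an independent test. Of all genes tested 6.49% passed for T618I, with a median of -0.05. Of 11 neutrophil genes, 7 rose with T618I and 0 fell, with a median of 0.84, among them Cd177 at 1.16 ± 0.16 (limma adjusted p = 0.00041) and the decoy receptor gene Il1r2 at 0.90 ± 0.14 (adjusted p = 0.00142). The neighbouring calprotectin genes S100a9 and S100a8, whose windows share peaks, rose by 1.04 ± 0.08 and 1.0 ± 0.09 (adjusted p = 2.5e-06 and 4.42e-06). The summed covered length of the 11 was 29.7 to 34.5 kb in sgB2/T618I and 36.6 to 41.4 kb in sgNT/T618I, against 17.5 to 20.5 kb in sgB2/Empty and 20.4 to 23.3 kb in sgNT/Empty. This sum counts the shared peaks of S100a9 and S100a8 in both windows, which widens the difference between vectors. Each of these windows averaged 6.67 kb in sgNT/T618I and 2.97 kb in sgNT/Empty. The 7 calls are therefore not of 7 separate sites. Cd177 averaged 0.670 kb in sgB2/T618I and 1.72 kb in sgNT/T618I, against 0.291 kb in sgB2/Empty and 0.160 kb in sgNT/Empty. Both Empty means lie below the mean of 500 bp needed for the test. Cd177 thus entered the test only through its T618I libraries. No gene of this list was at 0 in all libraries. Of 5 lymphoid genes 1 fell, Ebf1 at -0.64 ± 0.13 (adjusted p = 0.00813), and of 4 dendritic and 4 mast cell and erythroid genes tested 0 passed. Ebf1 covered 0.608 ± 0.327 kb in sgB2/T618I against 1.92 ± 0.289 kb in sgB2/Empty. In sgNT cells it covered 1.34 ± 0.144 kb with T618I against 1.51 ± 0.149 kb with Empty. The pooled fall of Ebf1 thus lay mostly in sgB2 cells, though 0 lymphoid genes passed for the interaction. The part of these lists in the values of the 6 genes was not tested.

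For sgB2 against sgNT, 1 of the 6 genes passed, Mpeg1, where 2.83% of all genes tested did. Its covered length fell by 0.38 on the log2 scale (-0.38 ± 0.09, 95% interval -0.57 to -0.19, limma adjusted p = 0.0335). The other values were -0.23 ± 0.17 for Adgre1, -0.15 ± 0.15 for Csf1r, -0.14 ± 0.11 for Ly86, -0.09 ± 0.08 for Cx3cr1 and 0.03 ± 0.11 for Cd68, with adjusted p-values of 0.588 to 0.948. The median of the 6 was -0.14, against 0.00 for all genes. Within 10 kb 0 of 5 genes passed, where 1.03% of all genes did, and Mpeg1 was at -0.06 ± 0.10 there. In the lists of 7 partners, 7 fate factors and 15 other monocyte and macrophage genes tested, 0 passed, with medians of 0.05, -0.10 and -0.18. The neutrophil, dendritic and lymphoid lists also had 0 calls, while 2 of 4 mast cell and erythroid genes rose, Gata1 at 0.45 ± 0.11 and Ms4a2 at 0.53 ± 0.13 (adjusted p = 0.0421 and 0.0445). Over the 12 omissions of a library the call of Gata1 was kept only without replicate 2 of sgB2/T618I or replicate 1 of sgNT/Empty (range 0.42 to 0.50), and that of Ms4a2 only without replicate 1 of sgB2/Empty (range 0.42 to 0.65). The summed length of the 6 listed mast cell and erythroid genes was 10.3 to 11.1 kb in sgB2/T618I against 8.4 to 9.3 kb in sgNT/T618I. With the empty vector it was 10.0 to 11.4 kb in sgB2/Empty against 6.9 to 8.9 kb in sgNT/Empty. Their part in the value of Mpeg1 was not tested.

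**Figure D2:**
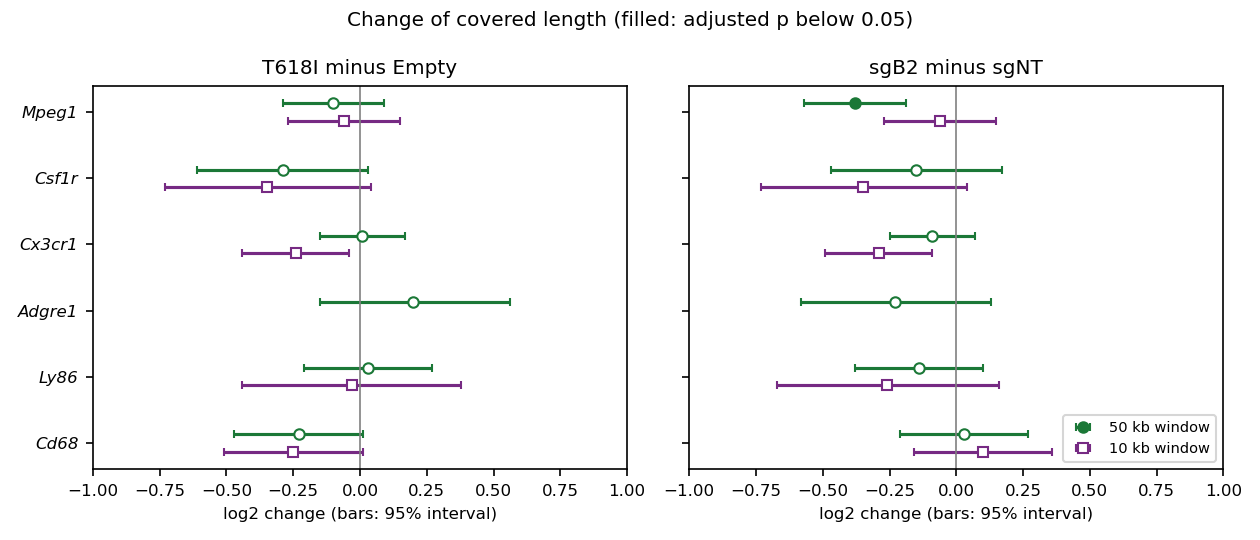
Log2 change of covered length (dots and squares) with its 95% interval (bars) for T618I minus Empty, left, and sgB2 minus sgNT, right, in windows of 50 kb and 10 kb; a filled mark has an adjusted p below 0.05. Mpeg1 for sgB2 within 50 kb (-0.38) is the 1 filled mark, and its 10 kb value is -0.06; Adgre1 had too little coverage within 10 kb to be tested.

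The interaction, which is the T618I change in sgB2 cells minus that in sgNT cells, passed for 0 of 6 genes in the limma fit, where 0.00654% of all genes passed, and 751 of 15286 had an unadjusted p below 0.05. Within 10 kb it passed for 0 of 5 genes, where 0.00841% of all genes did. Mpeg1 was at -0.48 ± 0.18 with an unadjusted p of 0.0177 and an adjusted p of 0.926. The other 5 genes had adjusted p-values of 0.999.

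Csf1r (Entrez gene 12978, chr18:61105572-61131139 on mm10) had 9 regions in its window, of which 1 was present in all 12 libraries, 71.5 kb from the lower-coordinate end of the gene. The strand of Csf1r is not in the table used here, so its distances are counted from that end. The window also takes in 3 other protein-coding genes, Pdgfrb, Hmgxb3 and LOC108168367, with Hmgxb3 within 10 kb. Which gene each region belongs to was not tested. Covered length was 1.51, 2.70 and 1.30 kb in sgB2/T618I, 1.65, 1.58 and 2.85 in sgNT/T618I, 1.86, 2.29 and 2.53 in sgB2/Empty, and 2.23, 2.83 and 2.67 in sgNT/Empty. Single T618I libraries, replicate 2 of sgB2/T618I and replicate 3 of sgNT/T618I, reached the level of the empty vector, and all groups overlapped.

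A region inside Csf1r, 3.1 kb from that end (chr18:61108440-61108991), had no peak in any of the 6 sgB2 libraries. Its scaled peak length was 0, 0 and 0 kb in sgB2/T618I, against 0.315, 0 and 0.264 kb in sgNT/T618I. With the empty vector it was 0, 0 and 0 kb in sgB2/Empty, against 0.541, 0.248 and 0.450 kb in sgNT/Empty. Only replicate 2 of sgNT/T618I lacked the peak among the sgNT libraries. With the rule of a peak in all libraries of one group and none of the other, it was lost with sgB2 in Empty cells, as were 0.94% of the 37113 regions found in at least 2 libraries. That loss held with stricter peaks, but not with equal-length lists or when a peak had to cover at least 50% of the region. A rule set after these values were seen, at least 5 of 6 sgNT and 0 of 6 sgB2 libraries, held for 0.496% of those regions and, among the 49 around the 6 genes, for this 1. In a limma fit over the peak length of all 37113 regions, also added after the values were seen, its sgB2 change was -0.65 ± 0.14 with an adjusted p of 0.0527. That fit crossed the threshold when replicate 1 of sgNT/Empty (-0.60, adjusted p = 0.0469) or replicate 2 of sgNT/T618I (-0.76, adjusted p = 0.0198) was omitted, and over all 12 omissions its adjusted p was 0.0198 to 0.107. The peaks ranked between the 22.5 and 46.5 percentile of strength in their libraries, where 100 is the strongest by the authors' −log10 p.

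At the lower-coordinate end of Csf1r itself, a region centred 0.3 kb inside the gene had a peak in 6 of 6 T618I libraries, against 3 of 6 Empty libraries. Replicate 1 of sgNT/Empty and of sgB2/Empty, which lacked it, had the shortest lists of the study (18484 and 20293 peaks). Replicate 2 of sgB2/Empty also lacked it, with 25252 peaks, more than in replicates 1 and 3 of sgB2/T618I. The part of list length was not tested. The peak length of this region averaged 0.292 kb in sgB2/T618I, 0.304 in sgNT/T618I, 0.069 in sgB2/Empty and 0.215 in sgNT/Empty, and its T618I change was 0.35 ± 0.15 (limma adjusted p = 0.232). At the other end, 26.0 kb away, the region had 0, 0.592 and 0 kb in sgB2/T618I, 0.158, 0.339 and 1.11 in sgNT/T618I, 0.725, 1.23 and 0.809 in sgB2/Empty, and 0.579, 0.555 and 0.574 in sgNT/Empty. Its 10 libraries with a peak include all 6 Empty ones, and its T618I change was -0.64 ± 0.23 (adjusted p = 0.150). The values at the ends of the gene pointed in opposite directions and neither passed.

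Cx3cr1 (Entrez gene 13051, chr9:120048683-120068296, minus strand) had 16 regions, and 7 of them were present in all 12 libraries. Its covered length varied least of the 6 genes, at 4.01, 3.96 and 3.72 kb in sgB2/T618I, 4.004, 4.24 and 4.17 in sgNT/T618I, 3.92, 3.47 and 4.15 in sgB2/Empty, and 4.30, 4.36 and 3.84 in sgNT/Empty. All 4 groups overlapped. Within 10 kb of the gene the values were 1.42, 1.25 and 1.39 kb in sgB2/T618I, 1.63, 1.98 and 1.54 in sgNT/T618I, 1.67, 1.39 and 1.85 in sgB2/Empty, and 2.36, 2.04 and 2.13 in sgNT/Empty. There the 3 sgNT/Empty libraries were the highest of the 12 and 2 of the 3 lowest were sgB2/T618I libraries. Neither contrast passed, at -0.24 ± 0.09 for T618I (limma adjusted p = 0.185) and -0.29 ± 0.09 for sgB2 (adjusted p = 0.182).

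The Cx3cr1 promoter carried a peak in all 12 libraries (chr9:120068134-120068911). It was 0.195, 0.212 and 0.252 kb long in sgB2/T618I, 0.229, 0.416 and 0.215 in sgNT/T618I, 0.301, 0.222 and 0.676 in sgB2/Empty, and 0.598, 0.600 and 0.556 in sgNT/Empty. The peak was longest on average in sgNT/Empty, but replicate 3 of sgB2/Empty was longer than any library of that group. Its strength ranked at the 42.2, 67.2 and 20.1 percentile in sgB2/T618I and 55.6, 23.6 and 42.8 in sgNT/T618I. With the empty vector it ranked at 52.7, 34.2 and 59.6 in sgB2/Empty and 17.4, 30.9 and 45.8 in sgNT/Empty. Length and rank thus did not order the groups alike. The T618I change of the peak length was -0.38 ± 0.12 (limma adjusted p = 0.102) and its sgB2 change -0.21 ± 0.12 (adjusted p = 0.50). A region centred at -48.0 kb from the gene start (chr9:120116060-120116441) was present in all 3 libraries of both T618I groups, in 0 of 3 sgB2/Empty libraries and in 2 of 3 sgNT/Empty libraries. Its length was 0.254, 0.219 and 0.255 kb in sgB2/T618I, 0.318, 0.249 and 0.203 in sgNT/T618I, 0, 0 and 0 in sgB2/Empty, and 0, 0.195 and 0.239 in sgNT/Empty. It counted as gained with T618I in sgB2 cells, as did 3.24% of regions, and its change over both guides was 0.41 ± 0.12 (adjusted p = 0.0795). The strongest region of the window, at -42.3 kb, overlapped the promoter of the neighbouring mitochondrial carrier gene Slc25a38 and ranked between the 52.2 and 94.2 percentile. The window also takes in Xirp1 and Ccr8.

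The 250 bases before the gene start are shown for Cx3cr1 and Cd68, whose promoters held a peak in all 12 libraries, and for Mpeg1, whose promoter held none in any. Capitals mark matches to 4 motifs searched on both strands: GAGGAAG of the PU.1 type, TTGCNNAA for C/EBP, TGANTCA for AP-1 and TGTGGT for RUNX, none of which overlapped another match in these 3 windows. The sequences are from RefSeq (GRCm38.p6, the coordinates of mm10) and run 5′ to 3′ on the gene's strand, at chr9:120068297-120068546 (minus), chr11:69666171-69666420 (minus) and chr19:12460520-12460769 (plus).
Cx3cr1: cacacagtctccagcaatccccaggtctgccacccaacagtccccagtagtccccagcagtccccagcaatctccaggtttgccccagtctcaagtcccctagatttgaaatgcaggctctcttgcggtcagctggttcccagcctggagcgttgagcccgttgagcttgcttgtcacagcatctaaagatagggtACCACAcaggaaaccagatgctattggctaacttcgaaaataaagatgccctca
Cd68: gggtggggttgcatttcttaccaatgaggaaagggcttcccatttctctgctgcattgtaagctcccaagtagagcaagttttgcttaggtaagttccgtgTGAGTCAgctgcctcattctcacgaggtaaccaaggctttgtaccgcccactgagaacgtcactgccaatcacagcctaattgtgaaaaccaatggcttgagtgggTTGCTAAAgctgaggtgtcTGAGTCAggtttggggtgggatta
Mpeg1: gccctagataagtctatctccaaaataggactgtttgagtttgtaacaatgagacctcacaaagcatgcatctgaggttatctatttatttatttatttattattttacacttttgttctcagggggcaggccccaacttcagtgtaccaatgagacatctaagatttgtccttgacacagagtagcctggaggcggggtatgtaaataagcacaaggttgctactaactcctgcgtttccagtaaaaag

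The Cx3cr1 promoter held 1 RUNX match on the reverse strand, and the Cd68 promoter held 2 AP-1 matches and 1 C/EBP match. Of 32851 promoter windows in the RefSeq table, which also take in 50 bases after the start, 13.6% held GAGGAAG, 10.8% TTGCNNAA, 7.8% TGANTCA and 16.8% TGTGGT. A peak was present in all 12 libraries at 27.4% of those windows and in none at 63.1%. The Ly86 promoter also had no peak and no match. A match describes letters and not bound protein.

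Adgre1 (Entrez gene 13733, chr17:57358581-57483529) had 5 regions over the longest of the 6 genes, and 2 of them were present in all 12 libraries, at -14.1 and -11.1 kb from its lower-coordinate end. Covered length was 2.60, 2.47 and 1.42 kb in sgB2/T618I, 1.84, 2.13 and 2.62 in sgNT/T618I, 0.786, 1.71 and 2.27 in sgB2/Empty, and 2.41, 2.04 and 1.99 in sgNT/Empty. Replicate 1 of sgB2/Empty was lowest and the groups overlapped. At that end of the gene a region centred 0.1 kb inside it had 0.770, 0.276 and 0.564 kb in sgB2/T618I, 0.166, 0.483 and 0.628 in sgNT/T618I, 0, 0.494 and 0.377 in sgB2/Empty, and 0, 0.278 and 0.328 in sgNT/Empty. The 2 libraries without the peak were the 2 with the shortest peak lists, and the T618I change was 0.41 ± 0.21 (limma adjusted p = 0.287). Elsewhere in the gene 1 region was found, in 1 library. The longest region of the window lay outside the gene, at -23.2 kb from the same end. It averaged 0.632 ± 0.562 kb in sgB2/T618I, 1.03 ± 0.164 in sgNT/T618I, 0.515 ± 0.573 in sgB2/Empty and 1.19 ± 0.357 in sgNT/Empty. The window also takes in Vav1 and Vmn2r120, and which gene each region belongs to was not tested.

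Adgre1 and Csf1r varied most between libraries, at an SD of 0.36 and 0.32 on the log2 scale. Among genes whose windows do not overlap theirs, the profiles over the 12 libraries closest to Adgre1 were those of Rusc2, Arpin and Plxnc1, with root mean square differences of 0.15, 0.18 and 0.18. The closest to Csf1r were Dram1, Gdf3 and Srp68, with 0.16, 0.18 and 0.18. The comparison ran over 15283 genes for Adgre1 and 15277 for Csf1r, whose libraries share the same scaling. The Adgre1 profile depends much on replicate 1 of sgB2/Empty, at 0.786 kb against 1.42 kb or more in every other library. Likeness without that library was not computed.

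Ly86 (Entrez gene 17084, chr13:37345345-37419036, plus strand) had 12 regions and no other protein-coding gene in its window. Covered length was 4.71, 3.13 and 3.54 kb in sgB2/T618I, 4.63, 3.53 and 4.75 in sgNT/T618I, 4.06, 3.84 and 3.35 in sgB2/Empty, and 4.12, 4.88 and 3.36 in sgNT/Empty. The groups overlapped throughout. The 4 regions present in all 12 libraries lay 88.9 to 116.9 kb after the gene start and so beyond its far end, and the longest of them, at 107.3 kb, averaged 1.53 kb in sgB2/T618I, 1.58 in sgNT/T618I, 1.25 in sgB2/Empty and 1.13 in sgNT/Empty. Its T618I change was 0.29 ± 0.12 (limma adjusted p = 0.212).

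Inside Ly86, a region 11.1 kb after the start was present in 3 of 3 sgB2/T618I, 3 of 3 sgNT/T618I, 1 of 3 sgB2/Empty and 3 of 3 sgNT/Empty libraries. It measured 0.305, 0.255 and 0.387 kb in sgB2/T618I, 0.267, 0.288 and 0.473 in sgNT/T618I, 0, 0 and 0.339 in sgB2/Empty, and 0.463, 1.04 and 0.520 in sgNT/Empty. Its interaction was 0.91 ± 0.32 (limma adjusted p = 0.585). A region centred at -32.8 kb (chr13:37312196-37312948) had 0, 0 and 0 kb in sgB2/T618I, 0.372, 0.217 and 0.312 in sgNT/T618I, 0, 0.763 and 0 in sgB2/Empty, and 0, 0.396 and 0 in sgNT/Empty. It counted as lost with sgB2 in T618I cells, as did 1.84% of regions, and its sgB2 change there was -0.67 ± 0.33 (adjusted p = 0.538). That loss held in none of these 3 alternatives, stricter peaks, equal-length lists and coverage of at least 50%.

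Mpeg1 (Entrez gene 17476, chr19:12460770-12465285, plus strand) had 11 regions, with 2 in all 12 libraries and 3 in a single library. Covered length was 1.94, 2.68 and 2.65 kb in sgB2/T618I, against 3.61, 4.18 and 4.11 kb in sgNT/T618I. With the empty vector it was 3.33, 3.15 and 3.02 kb in sgB2/Empty, against 3.52, 3.23 and 3.90 kb in sgNT/Empty. The sgB2/T618I libraries lay below all others, while the 2 Empty groups overlapped. Taken apart in the same limma fit, after the pooled result had been seen, the sgB2 change was -0.62 ± 0.13 in T618I cells (adjusted p = 0.0488) and -0.14 ± 0.13 in Empty cells (adjusted p = 0.776). In these 2 contrasts 0.36% and 0.353% of all genes passed, and 1 and 0 of the 6 genes. That the 2 changes differ was not shown, since that is the interaction (adjusted p = 0.926).

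Both calls of Mpeg1 were marginal. The pooled sgB2 call was kept in 9 of 20 alternative settings, with an adjusted p of 0.031 to 0.873 and a change of -0.54 to -0.06. It was lost when any one of 7 libraries was omitted, namely replicate 1 of sgB2/T618I, replicates 1, 2 and 3 of sgNT/T618I, replicates 2 and 3 of sgB2/Empty and replicate 3 of sgNT/Empty, with changes of -0.41 to -0.32. The call within T618I cells was kept in 1 of 12 such omissions, that of replicate 1 of sgNT/Empty. A fit with the replicate numbers as a block ended this call within T618I cells. It was also lost within 10 kb (-0.02, adjusted p = 0.996), without scaling (-0.77, adjusted p = 0.544), with equal-length lists (-0.26, adjusted p = 0.218), with stricter peaks (-0.42, adjusted p = 0.361) and with 100 bp added (-0.70, adjusted p = 0.0634).

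The difference in the Mpeg1 window lay mostly in 2 of its regions, both outside the gene. The window also takes in 3 other protein-coding genes, Olfr1441, Pfpl and Dtx4, with Dtx4 within 10 kb. Which of these genes the 2 regions belong to was not tested. The mean of sgB2/T618I minus that of sgNT/T618I was -1.546 kb, of which -0.626 kb came from a region at -20.6 kb from the gene start (chr19:12439688-12440640) and -0.504 kb from a region at 27.3 kb (chr19:12487672-12488404). The 2 regions present in all libraries, inside the gene at 3.5 kb and outside it at 41.0 kb, had differences of 0.059 and 0.031 kb. The inner one averaged 0.765 kb in sgB2/T618I, 0.706 in sgNT/T618I, 0.701 in sgB2/Empty and 0.861 in sgNT/Empty.

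The Mpeg1 region at -20.6 kb had 0, 0.454 and 0 kb in sgB2/T618I, 0.774, 0.798 and 0.760 in sgNT/T618I, 0.862, 1.02 and 0.983 in sgB2/Empty, and 1.31, 0.894 and 0.785 in sgNT/Empty. It was absent from 2 sgB2/T618I libraries only, and in replicate 2 of that group its peak was the shortest of the 10. Those 2 libraries had the shortest lists of all T618I libraries (24995 and 23695 peaks), and replicate 2 had the longest list of the study (32975). Replicate 1 of sgNT/Empty and of sgB2/Empty, with still shorter lists (18484 and 20293), had the peak. The part of list length was not tested. In the added fit over all regions this region was the 1 of 49 regions around the 6 genes to pass for T618I, at -0.72 ± 0.15 (limma adjusted p = 0.0180), where 5.18% of all regions passed. Within sgB2 cells the T618I change was -1.23 ± 0.21 (adjusted p = 0.0102), the 1 call of 49, where 2.92% of regions passed. Within sgNT cells it was -0.21 ± 0.21 (adjusted p = 0.704), and 0 of 49 passed against 1.72% of all regions. Its sgB2 change was -1.04 ± 0.21 in T618I cells (adjusted p = 0.0347), the 1 call of 49 against 1.24%, and -0.03 ± 0.21 in Empty cells (adjusted p = 1.0), where 0 of 49 and 0.738% passed. For sgB2 over both vectors 0 of 49 regions passed, where 1.07% of all did, and for the interaction 0 of 49, where 0.0189% did. A single call among 49 is 2.04%, which is below the share of all regions for T618I and for T618I in sgB2 cells. The calls for T618I and for T618I in sgB2 cells were kept without any one of the 12 libraries and were lost with no scaling, at -0.50 (adjusted p = 0.126) and -1.0 (adjusted p = 0.0622). The call for sgB2 in T618I cells was kept only without sgB2/T618I replicate 2, sgNT/Empty replicate 1 or sgNT/Empty replicate 3. It was lost without any one of the other 9 libraries (adjusted p of up to 0.111), with no scaling (adjusted p = 0.052) and with the replicate numbers as a block. The interaction of this region was -1.02 ± 0.30 (unadjusted p = 0.00511, adjusted p = 0.350).

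The Mpeg1 region at 27.3 kb had 0, 0 and 0 kb in sgB2/T618I, against 0.299, 0.595 and 0.620 kb in sgNT/T618I. With the empty vector it was 0, 0 and 0 kb in sgB2/Empty, against 0, 0 and 0.392 kb in sgNT/Empty. It counted as lost with sgB2 in T618I cells, and its change there was -0.99 ± 0.23 (limma adjusted p = 0.0595). Its 4 peaks were among the weaker ones of their libraries, between the 4.8 and 11.5 percentile. The region at -20.6 kb ranked between the 4.0 and 36.4 percentile. With every list reduced to its 18484 strongest peaks, or with at least 50% of a region covered, neither region met the rule of presence in all libraries of one group and none of the other. With stricter peaks the region at 27.3 kb did not meet it, while the one at -20.6 kb did, as lost with sgB2 in T618I cells.

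**Figure D3:**
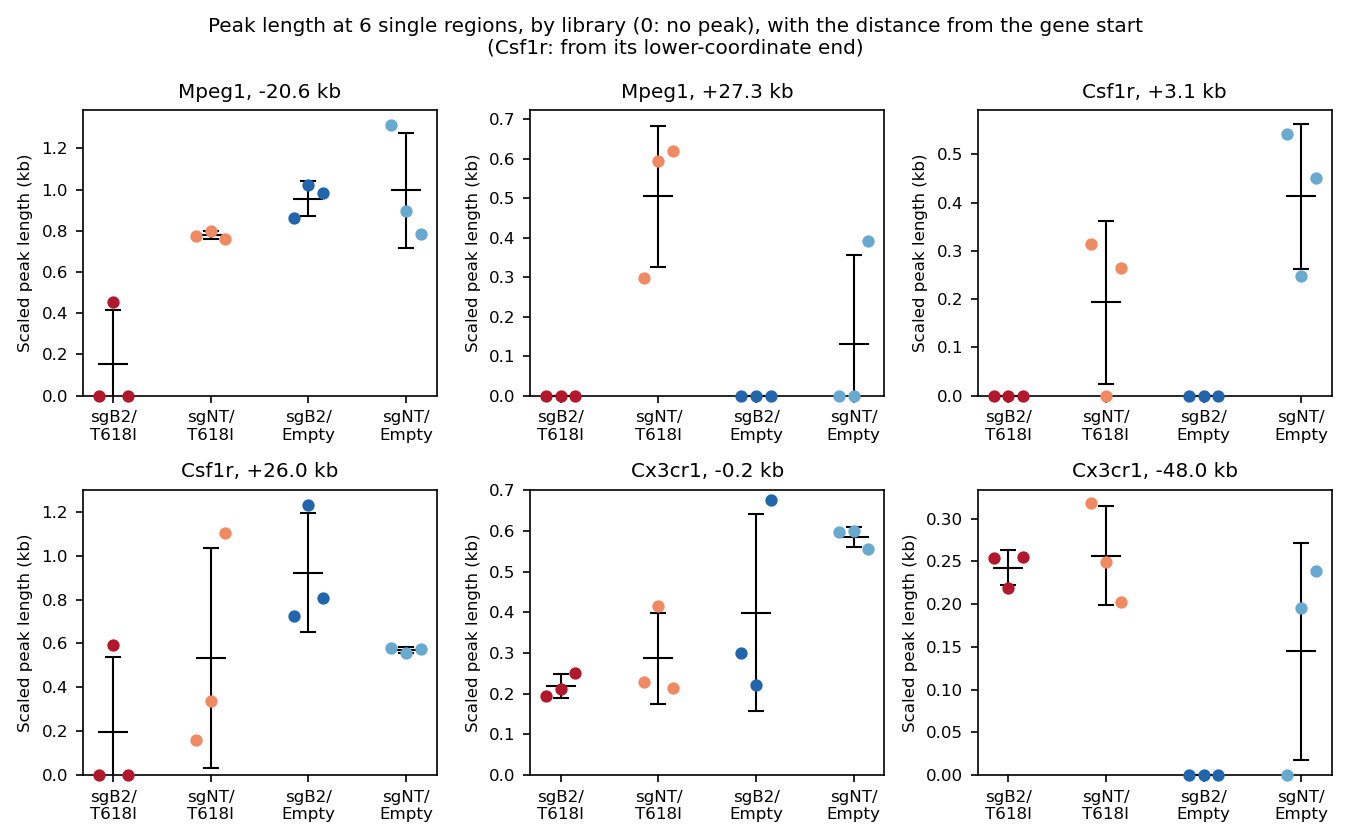
Scaled peak length (kb) at 6 regions picked after their values were seen, with 1 point per library, 0 where there was no peak, and the mean and SD of each group in black (bars are drawn from 0 up). At -20.6 kb of Mpeg1 the sgB2/T618I libraries (0, 0.454 and 0 kb) lie below the other 9, and at +3.1 kb of Csf1r all 6 sgB2 libraries are at 0.

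Cd68 (Entrez gene 12514, chr11:69664213-69666170, minus strand) lies among 10 other genes within 50 kb, and 6 of its 10 regions were present in all 12 libraries. One of those was its own promoter, and the other 5 overlapped promoters of Fxr2, Mpdu1, the translation factor gene Eif4a1, Senp3 and Tnfsfm13. The window value thus includes the promoters of these neighbours. Covered length was 4.79, 3.84 and 5.48 kb in sgB2/T618I, 4.82, 5.47 and 4.29 in sgNT/T618I, 7.11, 5.47 and 5.26 in sgB2/Empty, and 7.02, 4.97 and 4.55 in sgNT/Empty. The 2 highest values were those of the 2 libraries with the shortest lists, whose scaling factors were 1.48 in sgB2/Empty and 1.52 in sgNT/Empty.

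The promoter peak of Cd68 (chr11:69666062-69666473) averaged 0.336 kb in sgB2/T618I, 0.344 in sgNT/T618I, 0.378 in sgB2/Empty and 0.372 in sgNT/Empty. Its strength ranked at the 74.3, 85.6 and 68.9 percentile in sgB2/T618I, 88.6, 84.8 and 90.1 in sgNT/T618I, 54.3, 58.3 and 54.6 in sgB2/Empty, and 43.6, 81.1 and 81.0 in sgNT/Empty. Ranks come from lists of unequal length and are given as a description. At the promoter of Tnfsf13, at -19.6 kb from the Cd68 start, peak length was 0.507, 0.498 and 0 kb in sgB2/T618I, 0.505, 0.533 and 0.627 in sgNT/T618I, 1.05, 0.858 and 0.633 in sgB2/Empty, and 1.13, 0.671 and 0.673 in sgNT/Empty. All 6 T618I libraries lay below all 6 Empty libraries there, by as little as 0.627 against 0.633 kb, and the change of -0.53 ± 0.17 did not pass (limma adjusted p = 0.0960).

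**Figure D4:**
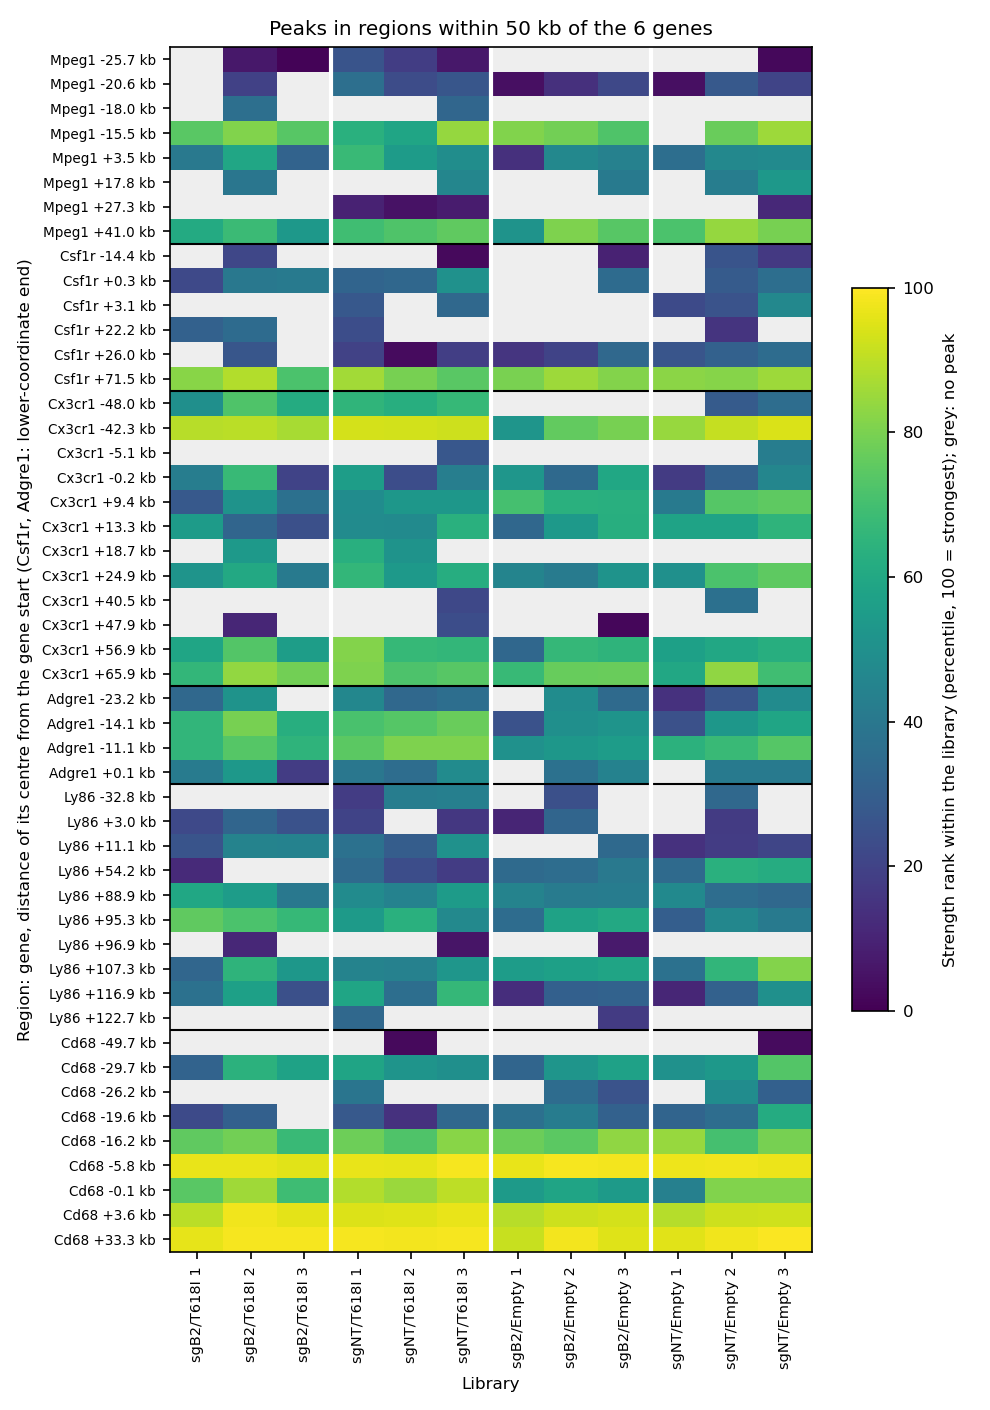
Strength percentile within the library (colour; 100 is the strongest peak, grey no peak) of the 49 regions found in at least 2 libraries, by gene and by distance of the region's centre from the gene start (kb; lower-coordinate end for Csf1r and Adgre1), in the 12 libraries. Regions near Cd68 at -5.8, +3.6 and +33.3 kb are among the strongest in every library, while those of Csf1r other than the one at +71.5 kb are weak or missing in some.

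Over the 6 windows, 22 of 63 regions (34.9%) were present in all 12 libraries, against 23.6% of all merged regions, and 14 were found in 1 library. The median strength percentile was 62.2 for the 22 and 27.4 for the others. The share present in all 12 was 60.0% for Cd68, 43.8% for Cx3cr1, 40.0% for Adgre1, 33.3% for Ly86, 18.2% for Mpeg1 and 11.1% for Csf1r.

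By the rule of a peak in every library of one side and none of the other, the 49 regions found in at least 2 libraries gave few changes. For T618I against Empty over 6 and 6 libraries, 0 were gained and 0 lost, where 0.684% and 0.0862% of all regions were. In sgB2 cells 1 was gained, the Cx3cr1 region at -48.0 kb, and 0 were lost, where 3.24% and 0.911% of all regions were. In sgNT cells 0 were gained and 0 lost, where 3.24% and 0.55% were. For sgB2 against sgNT over 6 and 6 libraries, 0 were gained and 0 lost, where 0.0754% and 0.181% were. In T618I cells 0 were gained and 2 lost, those of Mpeg1 at 27.3 kb and Ly86 at -32.8 kb, where 0.878% and 1.84% were. In Empty cells 0 were gained and 1 lost, the region inside Csf1r, where 0.701% and 0.94% were.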

How the data were processed

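The 12 deposited files were broad peak lists of ATAC-seq libraries, 1 per library and not pooled. Per the submitters' processing notes, they used mm10, BWA 0.7.17, SAMtools 1.9, bedtools 2.30, MACS2 2.2.7.1 and deepTools 3.5; peak calling settings are not given in the sources used here. The authors' score and fold enrichment (a ratio) were not used. The deposited −log10 p ranked peaks within a list, and the deposited −log10 q gave a stricter list (at least 3). The files hold no read counts, so depth is unknown and no counting interval is given.

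Peaks on the numbered chromosomes, X and Y were used. The covered length in the span of each gene (RefSeq GRCm38.p6) ± 50 kb was scaled to equal total covered length per library, and 500 bp were added before log2. Genes averaging 500 bp or more (15286) were fitted with limma 3.58.1 (trend, R 4.3.3) to 4 group means (8 residual degrees of freedom), with Benjamini-Hochberg adjustment over all genes and a call at an adjusted p below 0.05. T618I and sgB2 changes are means over the other factor. Regions found in at least 2 libraries (37113) were counted by presence. The same fit over their length in 7 contrasts, the sgB2 contrasts within each vector and the rule of 5 of 6 libraries were added after the data were seen. The fits were tested on simulated data, with changes planted only in genes and regions of longer covered length. How well they find changes at regions with many zeros was not checked. Python 3.11.15 with numpy 2.4.6, pandas 2.3.3, scipy 1.17.1 and matplotlib 3.10.9 did the rest.

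All 6 members are named, and of 7 lists with 64 other genes those that passed, at most 4 per list and contrast, by p-value. The members and lists were chosen with earlier results of these data known.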

Additional observations from a re-analysis of the deposited data

How the results depend on the processing

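Of 357 combinations of a gene, a contrast and an alternative, 310 kept direction and call. For sgB2, the Mpeg1 call was lost within 10 kb (-0.06), without scaling (-0.54), with equal-length lists (-0.25) and with stricter peaks (-0.27), and lay between -0.41 and -0.32 when single libraries were omitted. Values that turned sign were all uncalled. For T618I these were, without scaling, Mpeg1 (0.18) and Cd68 (0.07); with stricter peaks, Mpeg1 (0.05) and Cx3cr1 (-0.02); within 10 kb, Cx3cr1 (-0.24) and Ly86 (-0.03); with equal-length lists, Cx3cr1 (-0.0012). For sgB2 it was Cd68 without scaling (-0.13). For the interaction they were, within 10 kb, Mpeg1 (0.08), Csf1r (-0.30), Ly86 (0.48) and Cd68 (0.0056), and with stricter peaks Cx3cr1 (-0.07) and Adgre1 (-0.18). Omitting single libraries gave -0.03 to 0.03 for Cx3cr1 and -0.04 to 0.09 for Ly86 with T618I, -0.03 to 0.12 for Cd68 with sgB2, and interactions of -0.20 to 0.27 for Csf1r, -0.04 to 0.08 for Cx3cr1 and -0.21 to 0.06 for Ly86. Beside the 6 genes, Ms4a2 turned to -0.15 with equal-length lists. Unscaled values shift the median of all genes to 0.20 for T618I and -0.14 for sgB2. The cause of these changes was not tested.

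Genes called numbered 992 for T618I, 372 within 10 kb and 582 to 1119 without single libraries, the fewest without a replicate of sgNT/T618I (582, 617 and 625). For sgB2 they numbered 432, 122 within 10 kb, 22 without scaling, 210 with stricter peaks and 225 to 585 without single libraries. For the interaction they numbered 1, 4 with equal-length lists, 2 with stricter peaks, 2 with 100 bp added, 0 with 2000 bp added and 0 to 3 without single libraries. With lists cut to the 18484 strongest peaks, 38 regions around the 6 genes were found in at least 2 libraries. Of these, T618I gained 1 (Cx3cr1, -48.0 kb) and lost 2 (Cd68, -19.6 kb, and Ly86, 54.2 kb) over 6 and 6 libraries and in each guide. In either vector sgB2 lost 0 of them. With stricter peaks, which left 42 such regions, T618I lost 1 in sgB2 cells (Ly86, 54.2 kb) and sgB2 lost 1 in T618I cells (Mpeg1, -20.6 kb). When a peak had to cover at least 50% of a region, which left 46 regions, sgB2 lost 0 in either vector. The shares of all regions were not computed for these alternatives, so whether such counts are unusual cannot be said.

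Replicate numbers showed little sign of pairing the libraries, though pairing is not excluded: same-numbered libraries of different groups had correlations of -0.158 to 0.216 (median 0.0085), with 4 of 18 above 0.1, and 6 of 12 libraries correlated best with their own number. With the replicate block the sgB2 change of Mpeg1 was -0.38 (adjusted p = 0.0366) and its change in T618I cells -0.62 (adjusted p = 0.0537), which no longer passed; nor did the sgB2 change of its region at -20.6 kb in T618I cells (-1.04, adjusted p = 0.0644). It changed no other window call of the 6 genes. The number of libraries, 3 per group, and the list lengths limit what presence of a weak peak can show.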
